A study of Mus musculus with 7 samples.

Results

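The integrated stress response genes described here are *Trib3*, *Ddit3*, *Atf4*, *Atf5*, *Chac1*, *Asns*, *Sesn2*, *Ddit4*, *Psat1* and *Phgdh*, 10 of the 47729 genes in the table of forebrain RNA sequencing counts. They were chosen by name with the genotype differences of these same libraries in view, were found by gene symbol, and all 10 were in the table. The samples were forebrains of *Lhx6*+/- mice, used as controls, and of *Lhx6*-/- mice, called mutants, at postnatal day 15. The mice were of the strain F1(C57BL/6 X 129Sv). Every control carried 1 null copy of *Lhx6* (allele Lhx6tm2Vpa), so no wild-type forebrain enters the comparison, and the study describes the controls as littermates of the mutants without saying which pools share a litter. *Lhx6* encodes a transcription factor of interneurons from the medial ganglionic eminence (MGE). In the mutants every copy was null, in all cells and not in a chosen cell type. There were 4 control and 3 mutant libraries, each made from 2 pooled animals, so that animals cannot be told apart within a library. Columns of the table carry a library number, 2, 3, 10 and 11 for controls and 5, 12 and 13 for mutants, which is used below to name the libraries.

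The integrated stress response is a shared answer of cells to unfolded protein, lack of amino acids, double-stranded RNA or lack of heme. Each of these activates a kinase that phosphorylates the initiation factor eIF2 alpha. Most translation then slows, while the mRNA of the transcription factor ATF4 is translated more, and ATF4 induces genes for amino acid supply, redox balance and, under lasting stress, cell death. Because ATF4 is controlled in large part at translation, its mRNA level need not follow its activity. The genes described here are the factors *Atf4*, *Atf5* and *Ddit3* (CHOP) and the feedback regulator *Trib3*. Others are the glutathione enzyme *Chac1*, and *Sesn2* and *Ddit4*, which lower mTORC1 signalling. The amino acid synthesis enzymes are *Asns*, *Psat1* and *Phgdh*.

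ATF4 binds, as a dimer with a C/EBP factor, a composite element whose letters were searched here as TGATGNAA. The 3 matches among these genes are shown because they mark where such letters stand in *Trib3* and *Chac1*, whose mutants lay above the controls, and in *Asns*, whose genotypes overlapped. Each line gives 30 bases of RefSeq sequence (build GRCm38.p6), read 5′ to 3′ on the strand of the gene, with the match in capitals.
Trib3: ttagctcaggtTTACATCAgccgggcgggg
Chac1: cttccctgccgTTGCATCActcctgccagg
Asns: tcccagccacaTGATGAAActtcccgcacg
The *Trib3* window is chr2:152344028-152344057 on the minus strand, and its match began 14 bases after the RefSeq transcription start. The *Chac1* window is chr2:119351038-119351067 on the plus strand, with the match 193 bases before the start. The *Asns* window is chr6:7693214-7693243 on the minus strand, with the match 23 bases before the RefSeq start. In *Trib3* and *Chac1* the capitals are the motif on the opposite strand.

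Depth was similar in all libraries. Total expected counts ran from 32556304 to 38069151 per library, so a gene listed at 0 in a library could have up to 3 reads, or 0.0788 to 0.0921 CPM (counts scaled to the library total), a limit that covers counting error only. Values below are counts scaled by trimmed mean of M-values (TMM) factors to a common depth, called normalized counts. *Lhx6* had 615, 522, 476 and 522 normalized counts in the controls and 70.9, 76.6 and 70.1 in the mutants, so the genotypes were set apart as labelled. Some *Lhx6* reads thus remained in the mutants. The first principal component of log2 CPM (39.6% of the variance) set libraries 2, 3 and 5 apart from libraries 10 to 13, a run of library numbers that was recognised only after the values were seen and whose origin the labels do not give. Both runs hold both genotypes, so values within each run are given too. Of 8 forebrain markers, all 8 were tested, and of 7 markers of cerebellum and hindbrain only 2 were, with a summed level of 35.2 to 75.3 normalized counts.

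*Trib3*, a pseudokinase that ATF4 and CHOP induce and that restrains their activity, showed the largest ratio of these genes. In control libraries 2, 3, 10 and 11 its normalized counts were 7.68, 7.03, 7.68 and 7.11, while mutant libraries 5, 12 and 13 gave 15.3, 23.8 and 19.9. All mutants lay above all controls, and the mutant mean was 2.67 times the control mean. These values rest on few reads, 7, 7, 8 and 7 counts in the controls and 16, 23 and 21 in the mutants. *Trib3* passed the filter of 10 counts in 3 libraries only through the mutants, since 0 of 4 controls reached 10, so a gene with this pattern had to differ in order to be tested. The fitted log2 fold change of *Trib3*, mutant over control, was 1.40 (standard error, SE, 0.326).

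*Sesn2* encodes sestrin 2, which senses leucine and lowers mTORC1 signalling. It had 494.6, 444.9, 475.9 and 464.5 normalized counts in the controls and 827.7, 749.4 and 734.8 in the mutants. The lowest mutant was above the highest control by a wide gap, and the controls were tightly grouped (mean 470.0 ± 20.8, SD, n = 4, against 770.6 ± 50.0, SD, n = 3). The log2 fold change was 0.71 (SE 0.0930). *Chac1*, an enzyme that breaks down glutathione, had 218.2, 178.8, 196.7 and 223.6 normalized counts in the controls and 322.8, 315.7 and 278.4 in the mutants. Here too no mutant overlapped a control, with a ratio of means of 1.496 and a log2 fold change of 0.58 (SE 0.125).

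The 3 transcription factors did not share a pattern. *Atf5*, whose translation is controlled like that of *Atf4*, had 659, 631, 558 and 659 normalized counts in the controls and 848, 880 and 769 in the mutants. Its genotypes did not overlap, and the log2 fold change was 0.41 (SE 0.0990). *Atf4*, the central factor of the response, had 2835, 3074, 2713 and 2407 normalized counts in the controls and 2858, 2288 and 2551 in the mutants. The genotypes of *Atf4* overlapped, with control library 3 highest and mutant library 12 lowest, and the log2 fold change was -0.10 (SE 0.108). *Ddit3*, which encodes the death-promoting factor CHOP, had 485, 538, 472 and 428 normalized counts in the controls and 556, 524 and 453 in the mutants. These values overlapped as well, with a log2 fold change of 0.09 (SE 0.120). Mutant RNA for ATF4 and CHOP was therefore within 2 SE of the control level.

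The amino acid enzymes lay close to the control level or moderately above it. *Psat1*, the aminotransferase of serine synthesis, had 3700, 3844, 4096 and 3977 normalized counts in the controls and 4523, 4589 and 4739 in the mutants. The difference was small but the libraries of each genotype were close together, and no value overlapped (log2 fold change 0.24, SE 0.0713). *Phgdh*, the first enzyme of the same pathway, had 2156, 2727, 2653 and 2461 normalized counts in the controls and 2515, 2833 and 2698 in the mutants, which overlapped (0.10 on the log2 scale, SE 0.0963). *Asns*, the asparagine synthetase that amino acid lack induces, had 2517, 2857, 2508 and 2369 normalized counts in the controls and 2738, 2754 and 2652 in the mutants. The mutants of *Asns* lay inside the range of the controls, and the log2 fold change was 0.08 (SE 0.0808). *Ddit4* (REDD1), an inhibitor of mTORC1, had 2009, 1785, 1688 and 1693 normalized counts in the controls and 2230, 1514 and 1698 in the mutants. Mutant libraries 5 and 12 were the highest and the lowest of all 7 for this gene, and the log2 fold change was 0.02 (SE 0.134).

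**Figure D1:**
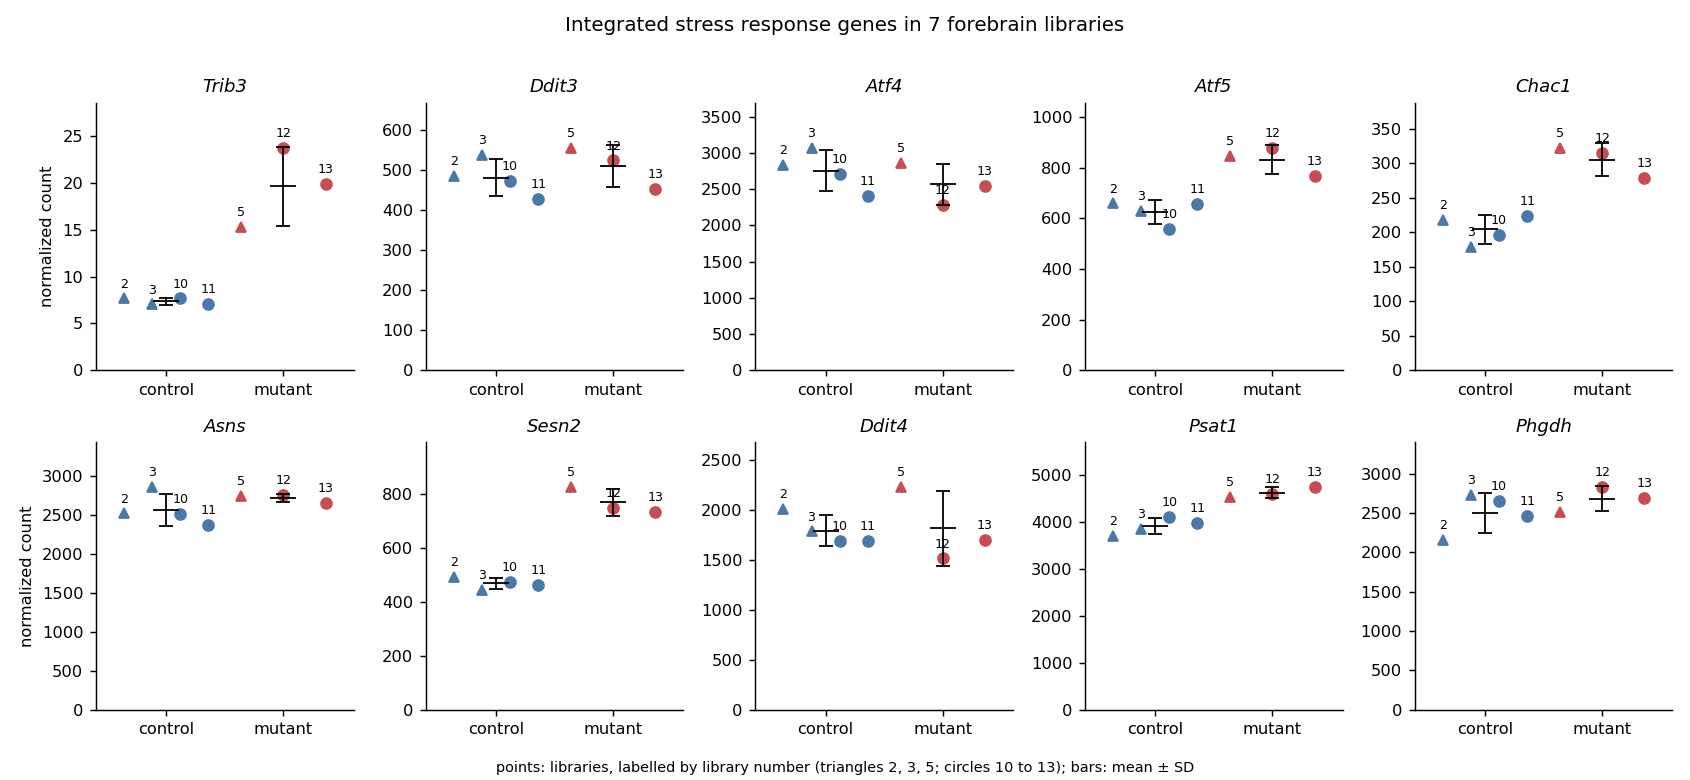
Normalized counts of the 10 genes (vertical axes from 0) in 4 control and 3 mutant libraries, with points labelled by library number, triangles for libraries 2, 3 and 5, circles for libraries 10 to 13, and bars for the mean ± SD. In *Trib3*, *Atf5*, *Chac1*, *Sesn2* and *Psat1* every mutant lies above every control, and in the other 5 the genotypes overlap.

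In 5 of the 10 genes all mutants were above all controls, as were 10.7% of the 19684 tested genes, and 19.7% did not overlap in either direction. In the quasi-likelihood test of edgeR, with p-values adjusted after Benjamini and Hochberg over all 19684 genes at 0.05, 3 of the 10 were called higher (*Trib3*, *Chac1* and *Sesn2*) and 0 lower. Of all tested genes 4.85% were called, 2.97% higher and 1.87% lower. At an unadjusted p under 0.05, 5 were higher and 0 lower in edgeR, where 3590 of the 19684 tested genes reached 0.05 in either direction. After adjustment DESeq2 called 4 higher and 0 lower, where it called 8.22% of genes. These genes were proposed with results of this same contrast in view, so the counts describe them and nothing is read from them. *Sesn2* was called in 13 of 13 alternative fits, among them all 7 that left out 1 library. *Chac1* was called in 5 of 13 and in 0 of those 7. *Trib3* was called in 2 of the 8 in which it was tested, and in 0 of 4 that left out a control. *Atf5* and *Psat1*, not called here, were called by DESeq2, where 4.71% of genes were called higher, and in a fit with the run as a covariate, where 6.16% were. In libraries 10 to 13 alone, where *Trib3* did not pass the filter, 3 of the other 9 were called, *Atf5*, *Chac1* and *Sesn2*, all higher, where 10.3% of genes were called and 5.8% called higher.

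Levels can be compared between genes only per length, here as CPM per kilobase of exon, taken over all exons of a gene. For these levels the library totals were scaled by the TMM factors. In the controls the order ran from *Atf4* (44.9 ± 4.52, SD, n = 4) through *Ddit4* (29.9), *Phgdh* (28.2), *Asns* (26.3), *Psat1* (25.8), *Atf5* (8.82), *Ddit3* (7.88), *Sesn2* (3.80) and *Chac1* (3.50) to *Trib3* (0.0974). *Ddit4* and *Phgdh*, *Phgdh* and *Asns*, *Asns* and *Psat1*, *Atf5* and *Ddit3*, and *Sesn2* and *Chac1* were neighbours whose control libraries overlapped, so their order is not resolved. *Atf4* was above 93.9% of tested genes on this scale, and *Trib3* was above 3.14%. In the mutants the mean level per kilobase of *Psat1* (30.5) was next after that of *Atf4* (41.8), and *Phgdh* (30.3) and *Ddit4* (30.2) followed within the spread of the libraries. That order depends on the length used. With the longest transcript as the length, the mutant mean of *Psat1* was 49.5, and every *Psat1* mutant lay above every *Atf4* mutant. *Trib3* was at 0.260 CPM per kilobase in the mutants, so it remained the lowest of these genes in both genotypes.

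**Figure D2:**
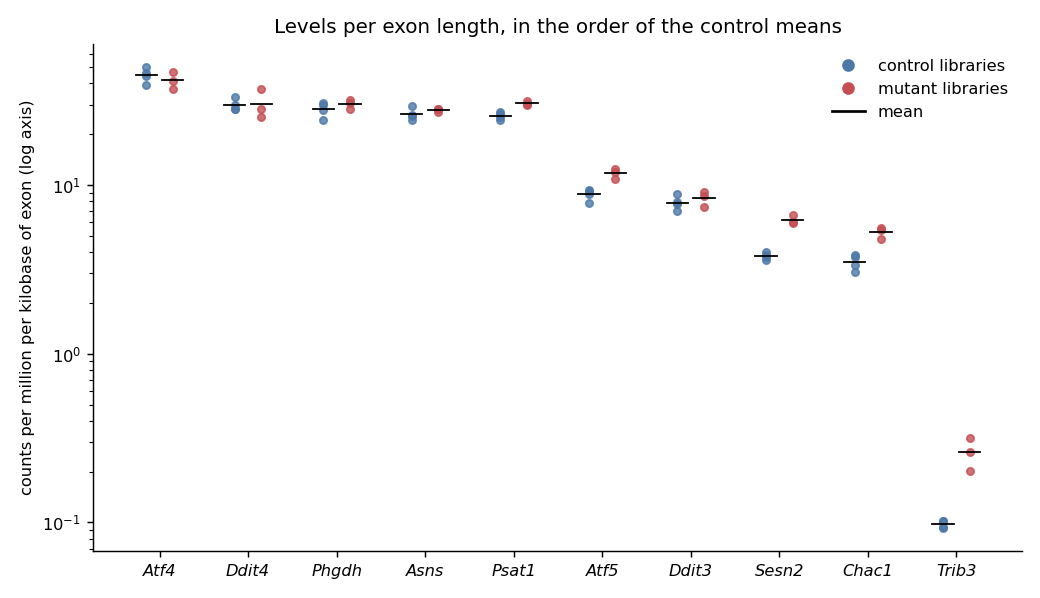
CPM per kilobase of exon on a log axis for each gene, in the order of the control means, with a point for each of 4 control and 3 mutant libraries and a line at each mean. *Trib3* stands far below the others, from 0.0974 in controls to 0.260 in mutants, while 5 genes lie between 25.8 and 44.9 in controls.

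Reads of *Phgdh* can be hard to place. It shares 54.1% of its 36-base words with other genes, most of them with the pseudogene *Gm7901* (42.8%), which had 0 to 7 counts per library, and the reads were 36 bases long. *Ddit3* shares 6.02%, with 4.09% shared with another entry also named *Ddit3* and 1.93% with *Mars*. The exons of *Ddit3* overlap those of *Mars* and *Gm4189* on the other strand over 4.73% of their length. *Atf5* shares 2.51% and overlaps *Il4i1* and *Nup62* on the other strand over 4.11%. *Psat1* shares 1.54%, and the other 6 genes share 0. A strand-specific count is not stated, so reads in the antisense overlaps cannot be assigned.

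Positions are on GRCm38 and come from the deposited exon annotation. Its starts of *Trib3* and *Asns*, both on the minus strand, differ from the RefSeq starts used for the motif distances. By this annotation the *Trib3* match (152344039 to 152344046) lies before the gene, and the *Asns* match (7693225 to 7693232) lies inside it. *Trib3* (chromosome 2, 152337422 to 152344032) and *Chac1* (chromosome 2, 119351229 to 119354381) are on the same chromosome as *Lhx6* (36081953 to 36105408). *Ddit3* (chromosome 10, 127290774 to 127296288) and *Ddit4* (chromosome 10, 59949675 to 59951770) also share a chromosome. *Sesn2* lies at chromosome 4, 132492032 to 132510501. *Atf4* lies at chromosome 15, 80255184 to 80257540, and *Atf5* at chromosome 7, 44812256 to 44816658. *Asns* lies at chromosome 6, 7675169 to 7693254. *Psat1* lies at chromosome 19, 15904678 to 15947337, and *Phgdh* at chromosome 3, 98313170 to 98339990.

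The genotype difference was then compared within each run of library numbers. For *Trib3* the mutant mean was 2.08 times the control mean in libraries 2, 3 and 5, and 2.95 times in libraries 10 to 13. For *Sesn2* it was 1.76 and 1.58, and for *Chac1* 1.63 and 1.41, so both genes were higher in the mutants of each run. *Atf5* (1.32 and 1.35) and *Psat1* (1.199 and 1.156) had closely similar ratios in both. The ratio of *Ddit4* lay on different sides of 1, at 1.18 and 0.950, and that of *Atf4* was 0.968 and 0.945. The first run holds 1 mutant library, so its ratios have no test, and the fit on libraries 10 to 13 is the one described above.

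**Figure D3:**
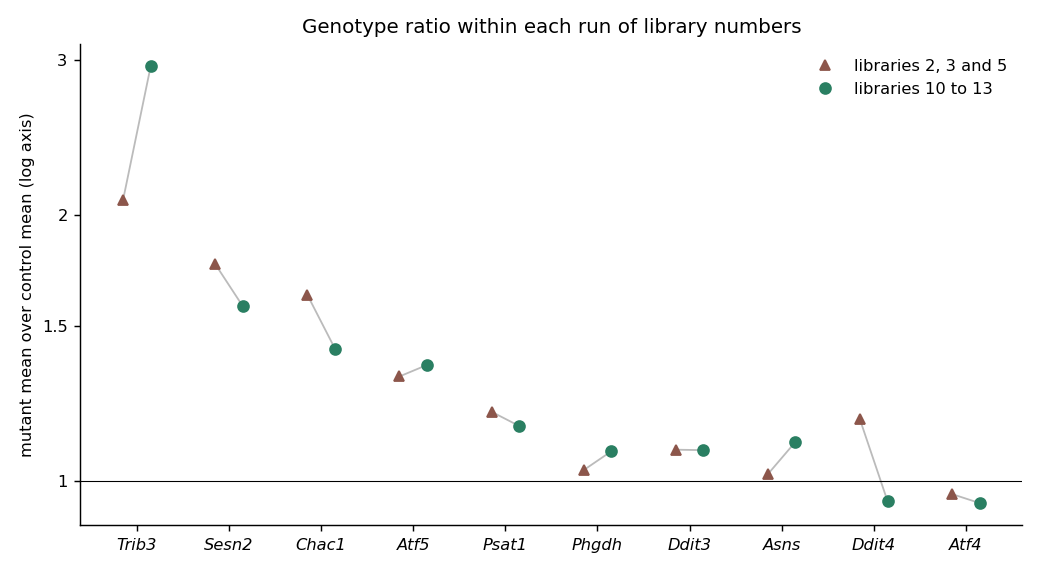
Mean of mutant libraries over mean of control libraries (log axis) for each of the 10 genes, within libraries 2, 3 and 5 (triangles) and within libraries 10 to 13 (circles). *Trib3*, *Sesn2*, *Chac1*, *Atf5* and *Psat1* are above 1 in both runs, and *Ddit4* has 1.18 in one and 0.950 in the other.

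A measure the choice of genes did not use is the difference between the runs themselves. *Atf4* and *Ddit4* were higher in libraries 2, 3 and 5 than in all of libraries 10 to 13, with ratios of the run means of 1.17 and 1.22. Such separation was seen in 12.1% of tested genes in that direction and 23% in either direction, so 2 of 10 is not far from the background. For these 2 genes the run of library numbers separated the libraries and the genotype did not. The other 8 overlapped between the runs, among them *Trib3*, for which the ratio of run means was 0.685. Each run mixes genotypes in another proportion, so these ratios are not free of the genotype.

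Bulk forebrain holds many cell types, and fewer cells of a type cannot be told apart from less RNA per cell. Cell type markers moved with the genotype: 5 of 8 markers of MGE-derived interneurons fell, *Lhx6* among them, and their summed level was 20300 to 22366 normalized counts in the controls and 11285 to 12529 in the mutants. *Nkx2-1* of the same list lay the other way, with a log2 fold change of 1.03 (SE 0.381), and was called higher with the run as a covariate and in libraries 10 to 13 alone. Of 8 markers of interneurons from the caudal ganglionic eminence, 3 rose (summed level 13980 to 17572 and 20849 to 24404). Of 8 oligodendrocyte markers 3 fell by edgeR, 5 by DESeq2 and 8 with the run as a covariate or in libraries 10 to 13 alone, with a median log2 fold change of -0.52, and the sum was 241124 to 313762 in controls and 173013 to 215410 in mutants. *Gfap*, with a log2 fold change of 1.95 (edgeR adjusted p = 7.41e-05), was the marker among 12 of astrocytes called by edgeR on all 7 libraries without a covariate. DESeq2 called 3 higher, as did the fit with the run as a covariate, and 4 were called higher in libraries 10 to 13 alone. The summed level of the 12 went from 223584 to 321129 in controls up to 348713 to 406880 in mutants. Of 8 endothelial markers edgeR without a covariate called 0 on all 7 libraries, with 4 higher at an unadjusted p under 0.05. DESeq2 called 2, and 4 were called higher with the run as a covariate and in libraries 10 to 13 alone. All 8 had a positive log2 fold change, and their sum was 8642 to 9812 in controls and 10886 to 11642 in mutants. Of 8 microglial markers edgeR without a covariate and DESeq2 called 0, with 2 lower at an unadjusted p under 0.05. With the run as a covariate 1 was called lower. The part of these markers in the levels of *Trib3*, *Sesn2*, *Chac1* and the other genes was not tested.

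The rest of the pathway was read from lists of 109 further genes, of which 106 passed the filter. In the fit across all genes 7 rose and 3 fell, and 96 were not called, beside 2.97% and 1.87% of all tested genes. The median log2 fold change of the 106 was 0.04, against -0.01 over all tested genes. With each library left out in turn, 2 to 8 were called higher and 0 to 3 lower. The fewest higher, 2, were called without control library 10, mutant library 12 or mutant library 13, against 3 without mutant library 5 and 4 without control library 2. The count of lower genes was 0 without mutant library 5 or 13 and 1 without mutant library 12. A fit with the run as a covariate called 16 higher and 5 lower, where 11.2% of all genes were called.

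Of the 4 kinases that phosphorylate eIF2 alpha, *Eif2ak2* (PKR, the sensor of double-stranded RNA) and *Eif2ak3* (PERK, the sensor of unfolded protein in the endoplasmic reticulum) rose. *Eif2ak2* had 296, 361, 324 and 387 normalized counts in the controls and 518, 498 and 473 in the mutants, a log2 fold change of 0.54 (SE 0.119, adjusted p = 0.0395 from the quasi-likelihood test of edgeR, adjusted after Benjamini and Hochberg as for all p-values here). *Eif2ak3* went from 929, 796, 998 and 1072 to 1368, 1485 and 1264, a log2 fold change of 0.53 (SE 0.112, edgeR adjusted p = 0.0330). Each call was kept in 2 of 7 fits that left out 1 library and lost without control libraries 2 or 10 or any mutant library, with adjusted p-values over all alternatives from 0.00231 to 0.132 for *Eif2ak2* and from 0.000973 to 0.140 for *Eif2ak3* in edgeR or DESeq2. Of 8 subunits of eIF2 and its exchange factor eIF2B, 0 were called by edgeR or DESeq2 and 0 had an unadjusted p under 0.05, and the largest difference was 0.18 for *Eif2b3* (SE 0.164). Of 5 subunits of the eIF2 alpha phosphatases, 0 were called by edgeR or DESeq2 on all 7 libraries and 0 had an unadjusted p under 0.05. *Ppp1r15a* (GADD34), the stress-induced one, had 827, 611, 527 and 532 normalized counts in the controls and 956, 686 and 641 in the mutants, which overlap (0.29 on the log2 scale, SE 0.197). Within each run its mutants lay above its controls, and in libraries 10 to 13 alone it was called higher (0.34, SE 0.0860, edgeR adjusted p = 0.0418), while over all alternatives the adjusted p from edgeR or DESeq2 ran from 0.0418 to 0.845.

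Among 11 bZIP factors and cofactors, *Atf3* rose and *Jdp2* fell. *Atf3*, an immediate stress and injury factor, had 34.0, 14.1, 17.3 and 19.3 normalized counts in the controls and 68.0, 96.3 and 59.7 in the mutants, a log2 fold change of 1.82 (SE 0.328, edgeR adjusted p = 0.0171). The lowest mutant lay above the highest control, library 2, and the call was lost without control library 10 or 11 or mutant library 12 or 13 (edgeR or DESeq2 adjusted p over all alternatives 0.000119 to 0.0803). *Jdp2*, a repressor that pairs with JUN proteins, went from between 1150 and 1354 to between 892 and 1010, a log2 fold change of -0.43 (SE 0.0887, edgeR adjusted p = 0.0298). That call was lost without control library 2 or 11 or any mutant library (edgeR or DESeq2 adjusted p over all alternatives 0.000890 to 0.162). *Nupr1*, a stress-induced chromatin cofactor, was not called here (0.62, SE 0.158, all mutants above all controls) but was called higher by DESeq2, with the run as a covariate and in libraries 10 to 13 alone. *Cebpa* (0.41, SE 0.121) was called higher by DESeq2 and with the covariate.

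Of 9 amino acid transporters 2 rose. *Slc7a5* (LAT1), which imports leucine and other large neutral amino acids, had 4748, 4474, 4087 and 4607 normalized counts in the controls and 8461, 6284 and 7281 in the mutants. Its log2 fold change was 0.71 (SE 0.110, edgeR adjusted p = 0.00936), and it was called in 13 of 13 alternative fits. *Slc1a5*, a glutamine exchanger, went from 116, 130, 127 and 121 to 171, 209 and 171, a log2 fold change of 0.58 (SE 0.134, edgeR adjusted p = 0.0469), and was called in 0 of 7 fits that left out 1 library (edgeR or DESeq2 adjusted p over all alternatives 0.0179 to 0.191). All 9 transporters had a positive log2 fold change, with a median of 0.28. Of 14 genes of amino acid and one-carbon synthesis, *Mthfd1l*, a mitochondrial folate enzyme, rose from 653, 801, 629 and 643 to 1265, 1022 and 1014 (log2 fold change 0.69, SE 0.123, edgeR adjusted p = 0.0160). That call was lost without control library 10 or any mutant library (edgeR or DESeq2 adjusted p over all alternatives 4.14e-05 to 0.0614).

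The 14 aminoacyl-tRNA synthetases, many of them textbook ATF4 targets, showed no call by edgeR or DESeq2, and 0 had an unadjusted p under 0.05. Their median log2 fold change was 0.03, and the largest in size was -0.18 for *Tars* (SE 0.127). Of 14 other ATF4 targets tested, *Cdkn1a*, an inhibitor of the cell cycle that p53 also induces, rose from 767, 981, 703 and 806 to 2361, 1667 and 1764 normalized counts. Its log2 fold change was 1.25 (SE 0.150, edgeR adjusted p = 0.00314), and it was called in 13 of 13 alternative fits. *Ddit4l*, the relative of *Ddit4*, fell from 347, 486, 635 and 589 to 175, 238 and 232, a log2 fold change of -1.26 (SE 0.220, edgeR adjusted p = 0.0153), with the call lost without any 1 of the mutant libraries (edgeR or DESeq2 adjusted p over all alternatives 1.58e-06 to 0.0694). *Fgf21*, a secreted stress hormone, had 0 in all 4 controls and 1.92, 2.07 and 2.84 normalized counts in the mutants, which is at or under the limit of 3 counts, and *Gdf15* had 0.959 to 4.39 in controls and 3.11 to 4.73 in mutants. Neither was tested.

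Of 20 unfolded protein response genes of the endoplasmic reticulum, *Xbp1*, the factor that drives many of the chaperones, was called lower and 19 were not called. A negative log2 fold change was found for 15 of the 20, and the median was -0.16, with -0.21 in libraries 2, 3 and 5 and -0.07 in libraries 10 to 13. *Xbp1* fell from 2141, 2250, 2363 and 2088 to 1494, 1724 and 1597 normalized counts, a log2 fold change of -0.46 (SE 0.0814, edgeR adjusted p = 0.0155). That call was lost without control library 10 or mutant library 5 or 13 (edgeR or DESeq2 adjusted p over all alternatives 5.21e-05 to 0.0935). At an unadjusted p under 0.05, 6 of the 20 were lower and 0 higher, beside 3590 of the 19684 tested genes in either direction. *Pdia6*, a protein disulfide isomerase with a log2 fold change of -0.46 (SE 0.125), was called lower by DESeq2, with the run as a covariate and in libraries 10 to 13 alone. Of 7 mitochondrial stress genes 0 were called by edgeR or DESeq2 and 0 had an unadjusted p under 0.05, and the largest in size was -0.37 for *Hspe1* (SE 0.215).

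**Figure D4:**
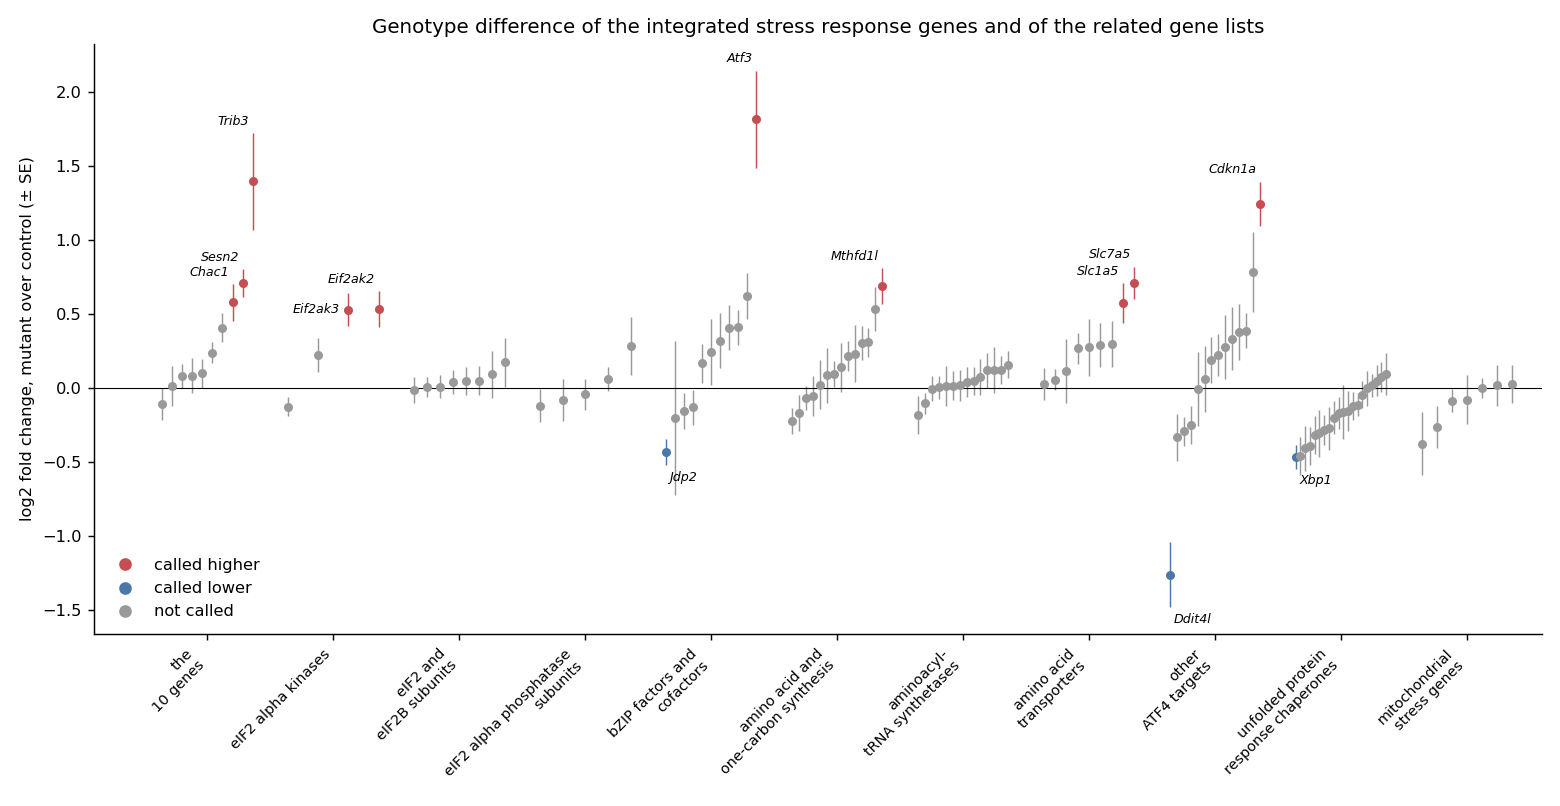
Log2 fold change, mutant over control, with its SE, for the 10 genes and each tested gene of the 10 pathway lists, ordered by value within a list, with genes called higher in red, called lower in blue and not called in grey. Called genes are named, and the tRNA synthetases and eIF2 subunits all lie within 0.2 of 0.

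Other stress programmes were read beside these genes from lists of 34 genes, of which 4 rose and 1 fell, beside 2.97% and 1.87% of all tested genes. Among the 106 pathway genes 7 rose and 3 fell, a smaller share. DESeq2 called 11 of the 34, where it called 8.22% of all genes. *Cdkn1a*, 1 of the 4 that rose, was also counted among the pathway genes. In the heat shock list of 8, the co-chaperone *Bag3* rose by 0.75 (SE 0.121, edgeR adjusted p = 0.0112) and the co-chaperone *Dnajb1* fell, with -0.45 (SE 0.0899, edgeR adjusted p = 0.0270). *Srxn1*, a sulfiredoxin, rose among 8 targets of the oxidative stress factor NRF2 (0.41, SE 0.0742, edgeR adjusted p = 0.0169). *Fkbp5* rose among 8 glucocorticoid targets (0.40, SE 0.0740, edgeR adjusted p = 0.0197), a list that also holds *Cdkn1a*. Of 10 hypoxia targets edgeR without a covariate called 0 on all 7 libraries, with 2 higher and 2 lower at an unadjusted p under 0.05. DESeq2, the fit with the run as a covariate and the fit on libraries 10 to 13 alone each called 3, of which 2 were higher and 1 lower. Calls of *Bag3*, *Srxn1*, *Dnajb1* and *Fkbp5* were kept in 6, 4, 3 and 1 of 7 fits that left out 1 library.

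Genes whose pattern over the 7 libraries was most like that of *Trib3* were found by the root mean square difference of centred log2 normalized counts. The nearest were *Ucp2* (0.139), a mitochondrial carrier protein, *Dusp5* (0.141), a phosphatase of the kinase ERK, *Plau* (0.147), the protease urokinase, *Cacng5* (0.155), an auxiliary subunit of glutamate receptors, and *Zbtb42* (0.160). *Ucp2* had 1051, 953, 1011 and 1075 normalized counts in the controls and 2429, 2676 and 2480 in the mutants, so its level was far above that of *Trib3*. These genes were chosen for their likeness, and the few counts of *Trib3* limit how well a likeness can be measured.

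RefSeq promoters, 250 bases before to 50 bases after each start, were found for all 10 genes. TGATGNAA on either strand stood in 3 of them, *Trib3*, *Chac1* and *Asns*, against 4.51% of 27025 genes with a promoter and 2.80% of tested ones. The 10 genes and the pathway lists were chosen for their part in this response, so their shares depend on that choice. Genes called higher held the motif in 4.29% and genes called lower in 3.35%. *Chac1* and *Trib3* had a log2 fold change of 0.58 and 1.40, while that of *Asns* was 0.08, and *Sesn2*, with 0.71, had no match in this window. Beyond these, 16 of 82 pathway genes with a promoter held the motif, among them 5 of 7 tRNA synthetases, none of which was called. The promoter of *Atf3*, which rose, and that of *Jdp2*, which fell, held it as well.

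Windows of other pathway genes, called or not, are shown to set their matches beside those above, again as 30 bases on the strand of the gene with the match in capitals.
Atf3: ccttctcgcacTTGCATCAccaagtccgcg
Jdp2: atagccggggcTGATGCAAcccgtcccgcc
Tars: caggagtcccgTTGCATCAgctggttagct
Gars: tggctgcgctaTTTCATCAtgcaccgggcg
These are chr1:191183425-191183454 (minus strand), chr12:85599372-85599401 (plus), chr15:11399655-11399684 (minus) and chr6:55037960-55037989 (plus) on GRCm38.p6. The 8 letters of *Atf3*, *Tars* and *Chac1* are identical, and their log2 fold changes were 1.82, -0.18 and 0.58. A match describes letters and not binding.

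The whole stretch before the start of *Chac1* is given because its match lies far from the start, with the 250 bases chr2:119350992-119351241 (GRCm38.p6, plus strand) and the match in capitals.
Chac1: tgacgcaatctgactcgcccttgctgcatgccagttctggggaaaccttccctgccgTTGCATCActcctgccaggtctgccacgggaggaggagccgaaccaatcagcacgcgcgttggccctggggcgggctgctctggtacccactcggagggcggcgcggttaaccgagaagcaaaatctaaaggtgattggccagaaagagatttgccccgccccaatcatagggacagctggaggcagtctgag

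Other motifs were searched on both strands in the same windows. The endoplasmic reticulum stress element, searched in its consensus form, stood in 0 of the 10 genes and in 8 of 18 promoters of unfolded protein response genes, against 0.137% of all genes. Those 18 were listed as genes of that response, so this share depends on the choice of genes. The cyclic AMP response element TGACGTCA stood in 0 of the 10, against 2.03% of all genes. The short CCACG, which is also a part of the longer element, stood in 8 of the 10, against 35.5% of all genes and 49.1% of tested ones.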

How the data were processed

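RNA from pools of 2 forebrains (RIN 9 to 10 per the labels) was sequenced as 36-base single reads. The authors trimmed reads with cutadapt 1.9.1, aligned them with Bowtie2 2.2.9 to the GRCm38 transcriptome and deposited expected counts per gene from RSEM 1.2.31. Expected counts divide reads that fit several genes, which bears on *Phgdh*. A deposited table of DESeq2 results holds the authors' comparison (fold changes and p-values) and was used for gene symbols only, and the deposited exon annotation gave positions and lengths. Columns of per-sample values left unused numbered 0.

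Expected counts were rounded and tested with edgeR 4.0.16 in R 4.3.3 (TMM, quasi-likelihood test, two-sided, no covariate) on the 19684 genes that reached 10 counts in 3 or more libraries, with Benjamini-Hochberg adjustment and a threshold of 0.05, giving 954 calls. Fitting was tested on simulated data. DESeq2 1.42.0, RLE scaling, other filters, each library left out, the run of library numbers as covariate and libraries 10 to 13 alone were alternatives. Libraries of a genotype differed by more than counting noise (chi-square per degree of freedom 9.36 to 65.9). Columns were matched to genotypes and not to single samples, so RNA quality and sex were not used. Litters of single pools are not stated, so p-values measure the spread between these pools.

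The 10 genes, the gene lists and the tests were chosen with earlier results of these data known. Named genes were the 10, *Lhx6*, the called pathway genes, the gene of largest change in each pathway list, called comparison genes and the 5 genes nearest to the one with the largest change. *Gfap*, *Nkx2-1*, *Nupr1*, *Cebpa*, *Pdia6* and the untested *Fgf21* and *Gdf15* were named after their values were seen. The endoplasmic reticulum stress element was searched as CCAAT and CCACG with a gap of 9 bases. 1 listed gene, *Dele1*, was not analysed here.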

Additional observations from a re-analysis of the deposited data

Results flagged for a closer look

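In 29 sets of 4 control libraries, of the genes named here, the highest and lowest library were compared with the others, and 2 stood apart by more than Dixon's 95% critical value. Control library 3 had 469 normalized counts of *Eif2b3*, with a gap to the next library of 0.862 of the whole range, and 801 of *Mthfd1l*, with a gap of 0.865. Chance flags about 1 in 20 sets. None of the 10 integrated stress response genes was among them, and the groups of 3 mutants were too small to be examined.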

How the results depend on the processing

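The number of all genes called went from 954 to 1690 with DESeq2, 2205 with the run as a covariate (including all 954), 1922 in libraries 10 to 13 alone, and 302 (without mutant library 13) to 971 with each library left out. The 3 calls among the 10 genes became 1 without a filter on low counts, 5 with the covariate and 1 to 1 with each library left out. Pathway genes called higher, 7 here, numbered 11 with DESeq2, 16 with the covariate, 15 in libraries 10 to 13 and 2 to 8 with each library left out, and those called lower, 3 here, numbered 5, 5 and 0 to 3 with the covariate, in libraries 10 to 13 and with each library left out. Comparison genes called, 5 here, numbered 11 with DESeq2, 12 with the covariate, 12 in libraries 10 to 13 and 1 to 7 with each library left out. No direction turned in these fits among the called genes of the pathway and comparison lists and the 10 genes, but the log2 fold change of *Ddit4*, not called, ran from -0.15 to 0.13. With lengths from the longest transcript, 6 of the 10 genes kept their rank in the controls. *Psat1* (41.9 CPM per kilobase) went from rank 5 to 2, where its control libraries overlapped those of *Atf4*. *Ddit4* (29.9) went from rank 2 to 5, and *Ddit3* (13.9) came before *Atf5* (9.69). RLE scaling left the 2 genes that separate the runs of library numbers at 2, an alternative chosen after seeing the data. The cause of these shifts was not tested. No paired analysis was possible because the columns carry library numbers and no replicate numbers. Depth limits *Trib3* most, with 7 to 23 counts per library.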
